A study of Homo sapiens with 12 samples.

Results

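The response of JVM2 to ironomycin was read from 4 of the 12 RNA-seq libraries of the series. JVM2 is a human mantle cell lymphoma line, which the study describes as expressing wild-type p53 and as having less Cyclin D1 protein than other such lines, next to Cyclin D2, and ironomycin is a semi-synthetic relative of the polyether salinomycin, built to trap lysosomal iron. The 4 libraries were a control (Ctrl), ironomycin at 250 nM (Irono), ibrutinib at 1.5 µM (Ibru) and both drugs at these doses (Irono+Ibru), each after 48 h. Ibrutinib inhibits Bruton tyrosine kinase (BTK), an enzyme of the B-cell receptor (BCR) pathway. There was 1 library per treatment, so ironomycin was compared within 2 pairs that share no library: Irono against Ctrl, and Irono+Ibru against Ibru. The other 8 libraries came from the mantle cell lymphoma lines JEKO1, at 50 nM ironomycin and 0.5 µM ibrutinib, and MAVER1, at 250 nM and 6.25 µM, under the same 4 treatments.

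The members were genes with 20 or more reads in at least 2 of the 4 JVM2 libraries, 14532 of the 63677 genes in the count table. The libraries held 38120929 to 38438166 reads each, and 1.75% to 2.17% of the reads fell on the mitochondrial genome. B-cell identity was checked against 8 markers, and the least abundant, CD79B, part of the BCR complex, had 3614 to 4316 reads. CCND1, the gene of Cyclin D1, had 8025 to 11280 reads and CCND2 8501 to 9648, whereas SOX11, a marker of most mantle cell lymphomas, had 0 reads in every library and CD5 had 1 or 2. Of 5 T-cell markers CD3D had 0 reads and CD8A at most 1, while CD3E gave 84 reads in Ctrl, 31 in Irono, 43 in Ibru and 20 in Irono+Ibru and CD2 gave 28, 19, 16 and 7. The reads of CD3E and CD2 were lower with ironomycin in both pairs. Among markers of other cell types, NKG7 had 132 to 225 reads, S100A9 148 to 184 and S100A8 38 to 56. CSF1R had 129 to 181, COL1A1 334 to 453 and CDH1 26 to 65. The other markers checked for these cell types had few reads. NCAM1, KLRD1 and GNLY had at most 6, CD14 and FCN1 at most 3 and LYZ 4 to 12. EPCAM, KRT19 and COL1A2 had at most 2 and DCN 0. NKG7, S100A9 and S100A8 were lower with ironomycin in both pairs, and CSF1R, COL1A1 and CDH1 higher. The part of such reads in other results was not tested.

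Cells take up iron bound to transferrin through the transferrin receptor, store it in ferritin and use it in iron-sulfur clusters, heme and dioxygenases. When free iron is scarce, iron regulatory proteins bind the mRNAs of these genes, which stabilizes the transferrin receptor mRNA and holds back ferritin translation. Iron-dependent prolyl hydroxylases also mark hypoxia-inducible factor (HIF) for degradation, ribonucleotide reductase needs iron to make DNA precursors, and free iron in the cell drives the lipid peroxidation of ferroptosis.

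With ironomycin, 5554 genes (38.2% of those tested) changed, 2796 upward (19.2%) and 2758 downward (19%). A gene was called when edgeR's quasi-likelihood test, with ibrutinib as a second term, gave a Benjamini-Hochberg adjusted p under 0.05 and both pairs moved the same way. Most changes were small: 4340 of the called genes moved by under 0.5 on the log2 scale, and the median log2 fold change was 0.34 for those called higher and -0.24 for those called lower. A change of 2-fold or more was called for 272 genes (1.87%), 184 higher (1.27%) and 88 lower (0.606%). In each pair on its own, 94 genes (0.647%) were at least 2-fold higher in both and 45 (0.31%) at least 2-fold lower in both. Over all genes tested, 77.9% had the same sign in the pairs, and the 2 log2 ratios had Pearson's r of 0.69 and Spearman's rho of 0.68 across genes, which are not independent replicates.

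The number of calls rested on the model. The 4 libraries left 1 residual degree of freedom, the disagreement between the pairs, shared across genes, so p-values measure that disagreement and not the spread of repeated cultures. A fit over all 12 libraries with separate terms for each line called 1131 genes in JVM2 (7.78%), 683 higher (4.7%) and 448 lower (3.08%), DESeq2 called 1988, and a fit without the ibrutinib term 1178. With 29702 genes tested down to 1 read, 6 were called. Without 1 library at a time, the count was 1589 without Ctrl, 845 without Irono, 1498 without Ibru and 287 without Irono+Ibru. Scaling to library totals gave 3555 genes higher and 1911 lower. For each gene group, the count from the fit over 12 libraries stands beside the main one. In that fit 4.7% of all genes were called higher and 3.08% lower, against 19.2% and 19% in the main fit.

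**Figure D1:**
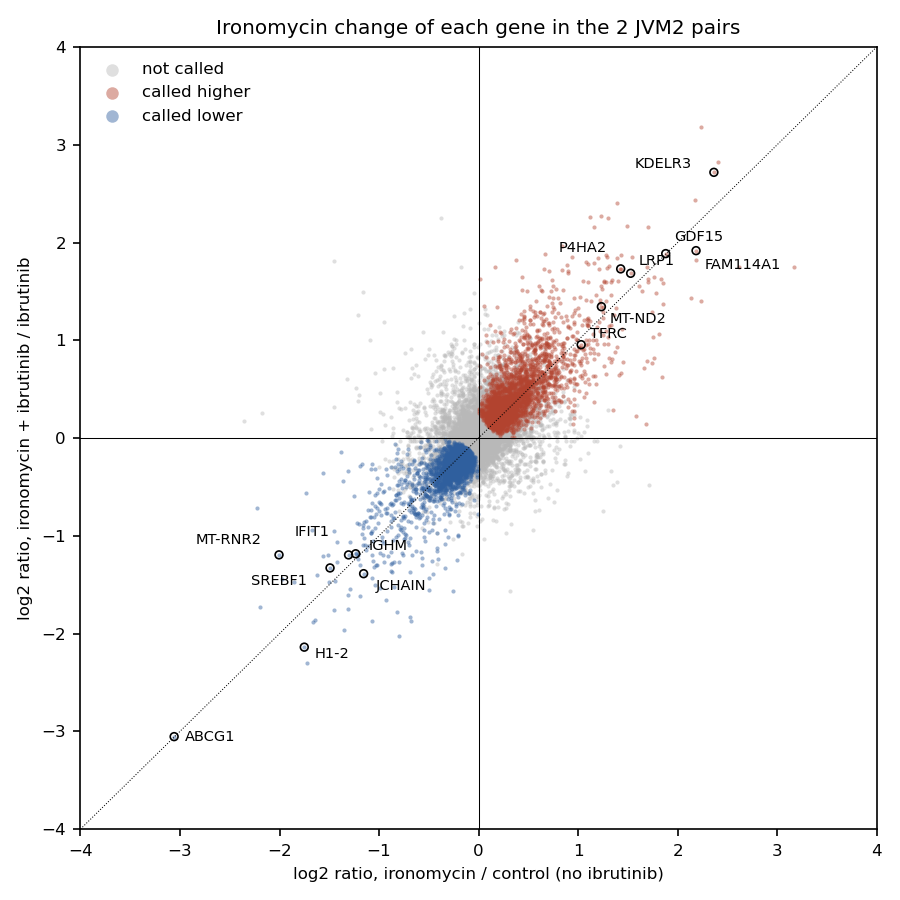
Log2 ratio of each of 14532 genes in JVM2, Irono against Ctrl on the x axis and Irono+Ibru against Ibru on the y axis, both from CPM (counts-per-million) values with a prior count of 2. Red points were called higher, blue points lower and grey points not called, the dotted line marks equal ratios, and 1 gene lies outside the axes; ABCG1 stands apart at the lower left, and FAM114A1, GDF15 and KDELR3 lie at the upper right.

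Among genes with a mean of at least 2 on the log2 counts-per-million (CPM) scale, the largest rises were FAM114A1 and GDF15. FAM114A1 had 63 reads in Ctrl, 303 in Irono, 59 in Ibru and 234 in Irono+Ibru. Both ironomycin libraries lay above both others, and the log2 fold change was 2.09 ± 0.15 (SE, adjusted p = 2.65e-16). GDF15, a secreted stress cytokine of the TGF-beta family, gave 224, 857, 164 and 627 reads in the same order. Its change was 1.89 ± 0.10 (adjusted p = 1e-22), and the ratio was alike in the pairs, 1.88 without and 1.89 with ibrutinib.

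The bases before the annotated starts of these 2 genes are shown because they led the rise, with the motifs searched for in capitals (RefSeq, GRCh38.p14, whereas the counts were made on GRCh37). They were searched on both strands for ACGTG, the core of the hypoxia response element, CCAAT, TGATGNAA, where ATF4 binds with C/EBP factors, and CACGTG, the E-box, which contains ACGTG.
FAM114A1, chr4:38867556-38867805, plus strand: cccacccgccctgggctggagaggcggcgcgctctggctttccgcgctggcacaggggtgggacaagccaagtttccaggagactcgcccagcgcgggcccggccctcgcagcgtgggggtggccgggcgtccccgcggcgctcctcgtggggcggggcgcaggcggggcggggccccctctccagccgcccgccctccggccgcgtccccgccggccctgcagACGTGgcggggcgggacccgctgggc
GDF15, chr19:18385908-18386157, plus strand: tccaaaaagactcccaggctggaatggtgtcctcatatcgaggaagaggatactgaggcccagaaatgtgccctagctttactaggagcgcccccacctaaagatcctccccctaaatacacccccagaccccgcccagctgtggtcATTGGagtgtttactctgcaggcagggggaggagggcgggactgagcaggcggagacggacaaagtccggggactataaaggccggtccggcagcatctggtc
FAM114A1 held ACGTG 26 bases before its start, and GDF15 held CCAAT on the minus strand, beginning 103 bases before its start. In windows of 300 bases around the start, 250 before and 50 after, ACGTG was found in 30.2% of 1957 genes called higher, 24.9% of 2176 called lower and 27.1% of 10310 tested. CCAAT was found in 34.6%, 39.8% and 37.2%, TGATGNAA in 1.89%, 1.88% and 1.81%, and CACGTG in 10.5%, 10.2% and 10.3% of the same sets. The shares of the 2 directions thus lay within a few percentage points of all genes tested. Among genes called at 2-fold or more, the 103 higher ones with a window had shares of 24.3%, 29.1%, 3.88% and 10.7% for the motifs in this order, and the 45 lower ones 4.44%, 51.1%, 13.3% and 2.22%. The shares of these few lower genes lay further from those of all genes. These are descriptions of letters in a window and not of bound sites.

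Other large rises fell in different kinds of genes. LRP1, an endocytic receptor of the LDL receptor family, had 172, 516, 194 and 644 reads in Ctrl, Irono, Ibru and Irono+Ibru, a log2 fold change of 1.62. P4HA2, a collagen prolyl hydroxylase that uses iron, had 101, 284, 73 and 253 reads, a change of 1.59, and FKBP10, a collagen chaperone of the endoplasmic reticulum (ER), had 158, 413, 142 and 445, a change of 1.47. In all 3 genes both ironomycin libraries were above both others. These genes were picked for the size of their rise, and the share of all genes that separate so was not counted. BEST1, a chloride channel, rose by 1.58, ASS1, an enzyme of arginine synthesis, by 1.47, HES2, a transcription factor, by 1.41, INHBE, a subunit of activin, by 1.34 and PANX2, a pannexin, by 1.32. Below the level limit, and picked after its values were seen, FBLN2, the matrix protein fibulin-2, had 1 read in Ctrl, 99 in Irono, 4 in Ibru and 98 in Irono+Ibru. It met the read filter only through the libraries with ironomycin, so its entry depended on the rise.

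The deepest fall was in ABCG1, a transporter that exports cholesterol from cells. It had 1443 reads in Ctrl, 177 in Irono, 1060 in Ibru and 129 in Irono+Ibru. The fall was the same in the pairs, and the log2 fold change was -3.07 ± 0.09 (adjusted p = 1.08e-32), an 8.41-fold fall. Next were H1-2, a linker histone, at -1.94, MT-RNR2, the mitochondrial large ribosomal RNA, at -1.60, and TENT5C, a poly(A) polymerase active in plasma cells, at -1.54. The other replication-type histone genes among the 12 largest falls were H2AC6 at -1.53, H2BC12 at -1.42 and H2BC11 at -1.18. Histone mRNAs of this type mostly lack a poly(A) tail, and the libraries were made from polyA RNA.

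ABCG1 was part of a pattern among genes of sterol balance. Liver X receptors (LXR) switch on sterol efflux and SREBF1, while SREBP factors switch on cholesterol synthesis. Of 11 LXR targets tested, 5 fell and 1 rose, with a median log2 fold change of -0.49 against 0.01 over all genes, and the fit over 12 libraries called 5 lower and 0 higher. SREBF1, which encodes SREBP-1, had 9697, 3557, 7524 and 3069 reads in Ctrl, Irono, Ibru and Irono+Ibru, a change of -1.41 ± 0.05. MYLIP, a ubiquitin ligase for the LDL receptor, fell by 1.05 on the log2 scale and LPCAT3, a phospholipid remodelling enzyme, by 0.53. Each of these 3, picked for the size of its fall, had both ironomycin libraries below both others.

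Cholesterol synthesis genes moved the other way. Of 33 members of the cholesterol and fatty acid synthesis list, 23 rose and 3 fell, with a median of 0.38, and 18 were called higher and 1 lower over 12 libraries. The 3 that fell were SREBF1, which is also counted among the LXR targets, and the fatty acid genes SCD and FADS2, each at -0.15. TM7SF2, a sterol reductase, rose by 0.82, LSS, which closes the sterol ring, by 0.76, MVD by 0.71 and SQLE, the squalene epoxidase, by 0.67. LSS had 7592 reads in Ctrl, 12341 in Irono, 7524 in Ibru and 14094 in Irono+Ibru. The libraries with and without the drug did not overlap, but LSS was picked for the size of its rise.

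**Figure D2:**
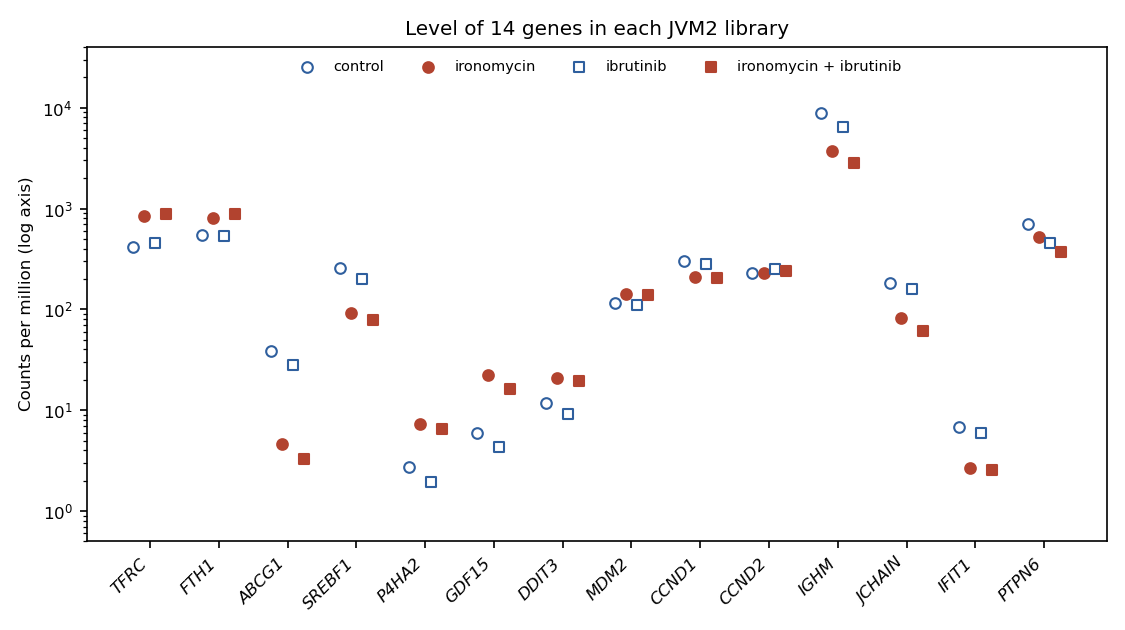
CPM, on a log axis, of 14 genes in each of the 4 JVM2 libraries. Open symbols are libraries without and filled symbols libraries with ironomycin, circles without and squares with ibrutinib; filled symbols lie above open ones for TFRC, FTH1, P4HA2, GDF15, DDIT3 and MDM2 and below for ABCG1, SREBF1, CCND1, IGHM, JCHAIN and IFIT1, while PTPN6 and CCND2 overlap.

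Genes of iron handling were called in both directions, in shares not far from those of all genes. Of 30 iron uptake, storage and sensing genes 25 were tested. In the main fit 8 rose (32%) and 6 fell (24%), beside 19.2% and 19% of all genes, with a median of 0.03. The fit over 12 libraries called 3 higher and 0 lower. TFRC, the transferrin receptor, had 15388 reads in Ctrl, 32468 in Irono, 17330 in Ibru and 34439 in Irono+Ibru. It rose 1.99-fold, 0.99 ± 0.04 on the log2 scale (adjusted p = 2.06e-25). FTH1, the ferritin heavy chain, had 20409, 30837, 20348 and 34517 reads and rose by 0.64. FTL, the light chain, had 60408, 72008, 43614 and 61957 reads and rose by 0.34. On the CPM scale Ctrl lay above Irono+Ibru, and the gene was not called over 12 libraries.

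Of the iron regulatory proteins, ACO1 (IRP1) rose by 0.42, and IREB2 (IRP2) had 3346, 3178, 3361 and 3164 reads, a change of -0.12 (adjusted p = 0.0549). Ferroportin, SLC40A1, had 1 to 3 reads and was not tested. STEAP1, of a metalloreductase family, fell by 0.56 and HFE, a partner of the transferrin receptor, by 0.42, and neither was called over 12 libraries. Of 37 genes of iron-sulfur cluster and heme synthesis, 6 rose (16.2%) and 11 fell (29.7%), beside 19.2% and 19% of all genes, with a median of -0.06. FDXR, the ferredoxin reductase, rose by 0.43 and ISCU, the scaffold on which clusters are built, by 0.30, whereas the ferredoxin FDX1 fell by 0.47. The fit over 12 libraries called 1 of the 37 higher and 2 lower, beside 4.7% and 3.08% of all genes.

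In the ferroptosis and NRF2 target list, 10 of 37 rose (27%) and 13 fell (35.1%), beside 19.2% and 19% of all genes. The median was -0.02, and 5 and 3 were called over 12 libraries. GPX4, which reduces lipid peroxides, had 7042, 8791, 7258 and 9339 reads and rose by 0.30. SLC7A11, the cystine transporter, had 536 reads in Ctrl, 621 in Irono, 369 in Ibru and 630 in Irono+Ibru. The log2 ratio was 0.17 without and 0.73 with ibrutinib, and the gene was not called over 12 libraries or by DESeq2. CHAC1, which degrades glutathione, rose by 0.69, while HMOX1, heme oxygenase 1, fell by 0.26 and SRXN1 by 0.39, 2 NRF2 targets that DESeq2 and the fit over 12 libraries did not call.

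Of 31 iron-dependent dioxygenases, 10 rose (32.3%) and 1 fell (3.23%), beside 19.2% and 19% of all genes, with a median of 0.05. Over 12 libraries 2 were called higher and 0 lower, beside 4.7% and 3.08% of all genes. Besides P4HA2, P3H1, a collagen prolyl 3-hydroxylase, rose by 0.51. HIF targets rose in 20 of 37 and fell in 3, with a median of 0.25, and 9 were called higher and 0 lower over 12 libraries. Some of them, P4HA2 and P4HA1 included, are also counted among the dioxygenases. PPFIA4 had 32, 83, 17 and 69 reads in Ctrl, Irono, Ibru and Irono+Ibru, and HIF1A itself 3181, 3140, 2977 and 2847. PPFIA4 rose by 1.59 and VLDLR, a lipoprotein receptor, by 0.86, and HIF1A had -0.08 (adjusted p = 0.213). ACGTG was in 57.1% of the 28 HIF targets with a promoter window, against 27.1% of all genes. This share counts list members whether or not they changed, so it describes the list and not the response.

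Glycolytic enzymes, many of which HIF also controls, were listed apart. Of 16 tested, 2 rose and 8 fell, with a median of -0.10. The risers were ALDOC, an aldolase, by 0.72, with 2449, 3401, 1645 and 3444 reads in Ctrl, Irono, Ibru and Irono+Ibru, and ENO2, an enolase, by 0.17. LDHA, lactate dehydrogenase A, had 51892, 46521, 43004 and 35895 reads and GAPDH 137078, 125505, 119433 and 108610. These 2 enzymes changed by -0.25 and -0.17, and over 12 libraries 1 enzyme was called higher and 0 lower.

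The unfolded protein response has 3 sensors in the ER membrane: IRE1, which splices XBP1 mRNA, ATF6, which raises chaperones, and PERK, which acts through ATF4 and CHOP. In the main fit genes of all 3 branches rose by small amounts. Of 37 IRE1-XBP1 and ER-associated degradation genes, 21 rose and 4 fell (median 0.18), of 24 ATF6 and ER folding genes 14 rose and 2 fell (0.13), and of 46 PERK, ATF4 and CHOP targets 35 rose and 1 fell (0.30). Over 12 libraries 6, 1 and 14 were called higher and 0 lower in each, where 4.7% of all genes were called higher and 3.08% lower. The 1 of 24 ATF6 and ER folding genes was near that share of all genes. ERN1, which encodes IRE1-alpha, had 1598 reads in Ctrl, 2408 in Irono, 1192 in Ibru and 2739 in Irono+Ibru, a change of 0.85 ± 0.07. KDELR3, a receptor that returns chaperones to the ER, went from 43 to 237 reads and, with ibrutinib, from 21 to 153, a change of 2.57 ± 0.19. SEC31A, a coat protein of ER export vesicles, and DERL3, of ER-associated degradation, each rose by 0.64.

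Other genes central to this response moved little. HSPA5, the chaperone BiP, rose by 0.22, XBP1 fell by 0.18, TXNDC5, a protein disulfide isomerase, fell by 0.32, and none of the 3 was called over 12 libraries. XBP1 had 10116, 9304, 9846 and 8855 reads, and counts per gene do not show splicing. In the PERK branch, DDIT3, the gene of CHOP, had 441, 797, 345 and 752 reads and rose by 0.94, ATF5 rose by 0.93 and ATF4 by 0.19. TGATGNAA was found in 23.7% of the 38 PERK, ATF4 and CHOP targets with a promoter window, against 1.81% of all genes. Members that did not change are counted too, so this share describes the list and not the response.

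Lysosomal genes, which serve the compartment where ironomycin holds iron, rose in 27 of 59 and fell in 7 (median 0.08), and 11 and 2 were called over 12 libraries. The glycosidase GAA rose by 0.71, the protease LGMN by 0.69, the sialidase NEU1 by 0.64 and the ceramidase ASAH1 by 0.57. SCARB2, a lysosomal membrane protein, fell by 0.59 and CTSZ, cathepsin Z, by 0.42. NEU1 had 1189, 1834, 950 and 1599 reads in Ctrl, Irono, Ibru and Irono+Ibru, and SCARB2 278, 184, 203 and 144. Of 34 autophagy and ER-phagy genes 11 rose and 3 fell (median 0.07). Over 12 libraries 2 were called higher and 0 lower, where 4.7% of all genes were called higher and 3.08% lower. CCPG1, an ER-phagy receptor, rose by 0.83 and WIPI1 by 0.42. Of 10 metallothioneins and zinc transporters 6 rose and 1 fell (median 0.22; 3 higher and 0 lower over 12 libraries).

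**Figure D3:**
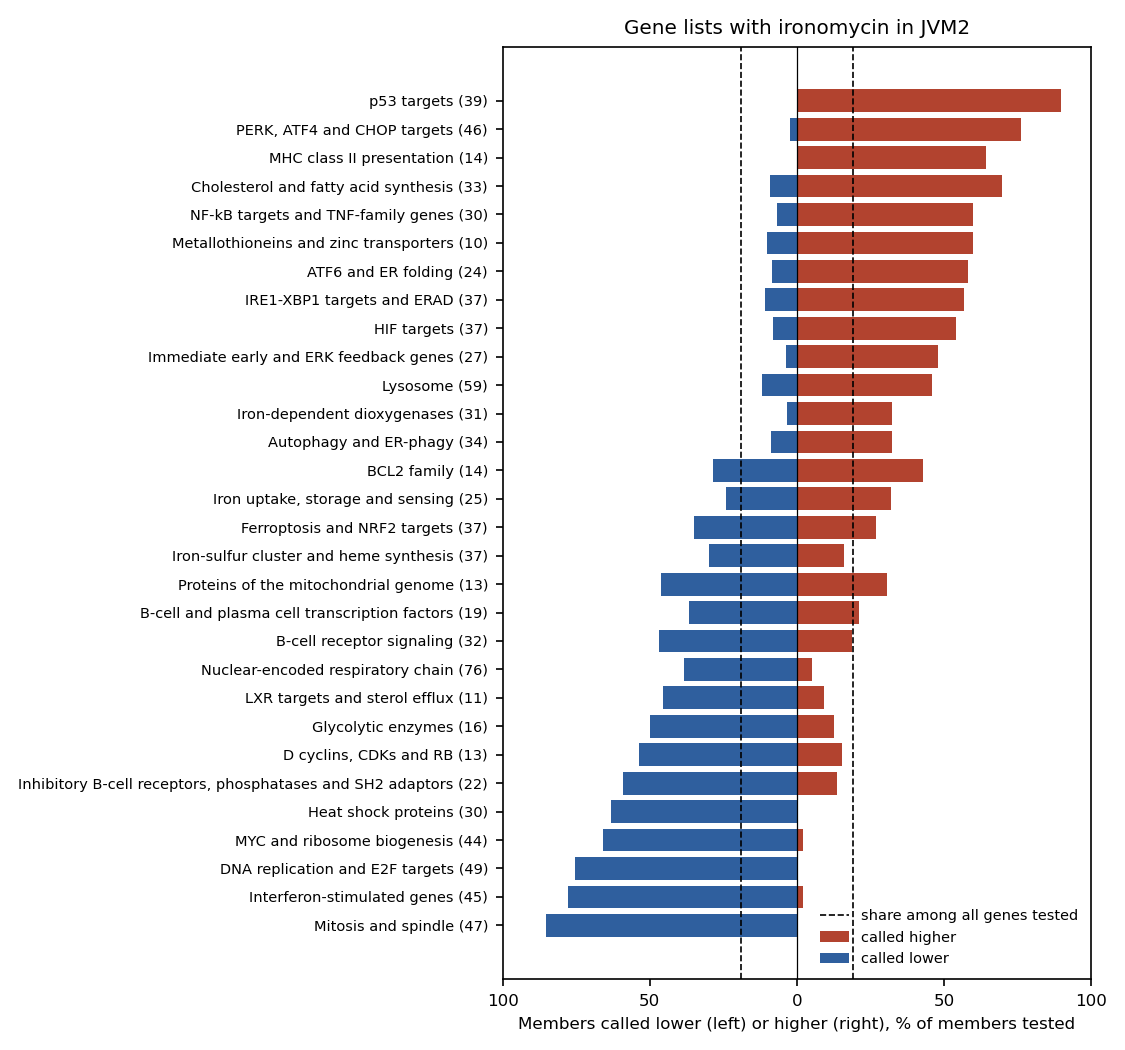
Share of the tested members of each of 30 gene lists called higher (red, right) or lower (blue, left) with ironomycin in JVM2, in percent, with the number tested in parentheses. Dashed lines mark the shares among all genes tested, 19.2% higher and 19% lower; p53 targets lie at the top with 89.7% higher, and mitosis and spindle genes at the bottom with 85.1% lower.

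Targets of p53, the tumor suppressor that responds to DNA damage and other stress, gave the most one-sided list upward. Of 39 tested 35 rose and 0 fell, and the other 4 had positive values as well. The median was 0.33, and 19 were called higher and 0 lower over 12 libraries. SPATA18 had 228 reads in Ctrl, 493 in Irono, 236 in Ibru and 458 in Irono+Ibru, and TP53I3, an oxidoreductase, 446, 862, 537 and 925. They rose by 0.99 and 0.82, and ironomycin libraries did not overlap the others, but both genes were picked for the size of their rise. TNFRSF10C, a decoy TRAIL receptor, had 20, 53, 25 and 71 reads. MDM2, the ubiquitin ligase for p53, rose by 0.31 (4370, 5453, 4158 and 5389 reads), BBC3 (PUMA) by 0.50, CDKN1A (p21) by 0.30 and BAX by 0.18, the last 3 not called over 12 libraries. GDF15 is also on this list.

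Genes of the BCL2 family, which set the threshold for apoptosis, moved both ways, 6 of 14 upward and 4 downward (median 0.13; 1 and 3 over 12 libraries). BCL2 had 4904, 6196, 4992 and 7177 reads and rose by 0.39. MCL1, another survival protein, had 9480, 8182, 10744 and 8669 reads and fell by 0.30. BCL2L1, the gene of BCL-XL, had 2878, 3047, 3190 and 3180 reads, with a log2 fold change of -0.00 (adjusted p = 0.979). Of the pro-apoptotic members, BBC3 (PUMA) rose by 0.50, BMF by 0.26 and BAX by 0.18, whereas BCL2L11 (BIM) fell by 0.52, BAK1 by 0.42 and BID by 0.26.

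Genes of the cell cycle and of growth fell, in many genes and by small amounts. Of 47 mitosis and spindle genes 40 fell and 0 rose (median -0.24), of 49 DNA replication and E2F targets 37 fell and 0 rose (-0.23), and of 44 MYC and ribosome biogenesis genes 29 fell and 1 rose (-0.20). Over 12 libraries 4, 3 and 8 of these were called lower and 0 higher, where 3.08% of all genes were called lower. CDC20, an activator of the anaphase-promoting complex, had 9782, 6763, 9542 and 5999 reads and fell by 0.64. PLK1, a mitotic kinase, fell by 0.55, RRM2, a ribonucleotide reductase subunit that carries iron, by 0.55 and MCM7, of the replicative helicase, by 0.43. E2F2 fell by 0.56, RRS1, of ribosome assembly, by 0.46, and MKI67 by 0.21. MYC itself was the member of its list that rose, by 0.29, with 8334, 10850, 9124 and 11068 reads, and was not called over 12 libraries.

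CCAAT was in 77.5% of the 40 mitosis and spindle genes with a promoter window, against 37.2% of all genes. As members that did not change are included, this share describes the list and not the response. Among the D cyclins, CDKs and RB genes, 7 of 13 fell and 2 rose (median -0.24; 3 and 1 over 12 libraries). CCND1 had 11280 reads in Ctrl, 8050 in Irono, 10779 in Ibru and 8025 in Irono+Ibru, and fell by 0.50 ± 0.05 (adjusted p = 4.34e-13). CCND2 had 8501, 8853, 9648 and 9327 reads, with a log2 fold change of -0.04 (adjusted p = 0.566) that became 0.01 with library totals. Cyclin D1 mRNA was thus lower with ironomycin in both pairs of these libraries, and Cyclin D2 mRNA overlapped between libraries with and without it. The study's quantitative PCR after 48 h, from 3 independent experiments, showed no difference in CCND1 or CCND2 mRNA in JVM2. The counts here rest on 1 library per treatment, and why the 2 measures differ for CCND1 was not tested. CDKN2A, which inhibits CDK4 and CDK6, fell by 0.60.

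Heat shock proteins fell in 19 of 30 and rose in 0 (median -0.19; 5 and 0 over 12 libraries). HSPB1, a small heat shock protein, had 4424, 3381, 3993 and 2931 reads and fell by 0.46, and CCT2, of the chaperonin that folds actin and tubulin, fell by 0.44. Of 76 nuclear-encoded respiratory chain genes 29 fell and 4 rose (median -0.10), and 0 were called in either direction over 12 libraries. UQCR11, of complex III, fell by 0.43 and ATP5MC3, of ATP synthase, by 0.28.

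The 13 protein genes of the mitochondrial genome split, although they are made from long shared precursors. MT-ND2, a subunit of complex I, had 38221 reads in Ctrl, 92839 in Irono, 38194 in Ibru and 99362 in Irono+Ibru, and MT-CO1, a subunit of complex IV, had 199970, 97792, 213305 and 111158. MT-ND2 rose by 1.29 and MT-CO1 fell by 1.03. MT-ND1 rose by 0.83, MT-ND4L by 0.31 and MT-ND3 by 0.12. MT-ND6, the only protein gene on the other strand, fell by 0.99, MT-CO2 by 0.44, MT-ATP8 by 0.34, MT-CO3 by 0.33 and MT-ND5 by 0.27, and MT-CYB, MT-ATP6 and MT-ND4 were not called. Over 12 libraries 1 was called higher and 2 lower.

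Nuclear copies of mitochondrial sequence share reads with these genes: MTND2P28, a pseudogene nearly identical to MT-ND2, rose by 1.35 beside it, and the split of reads between such copies is uncertain.

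**Figure D4:**
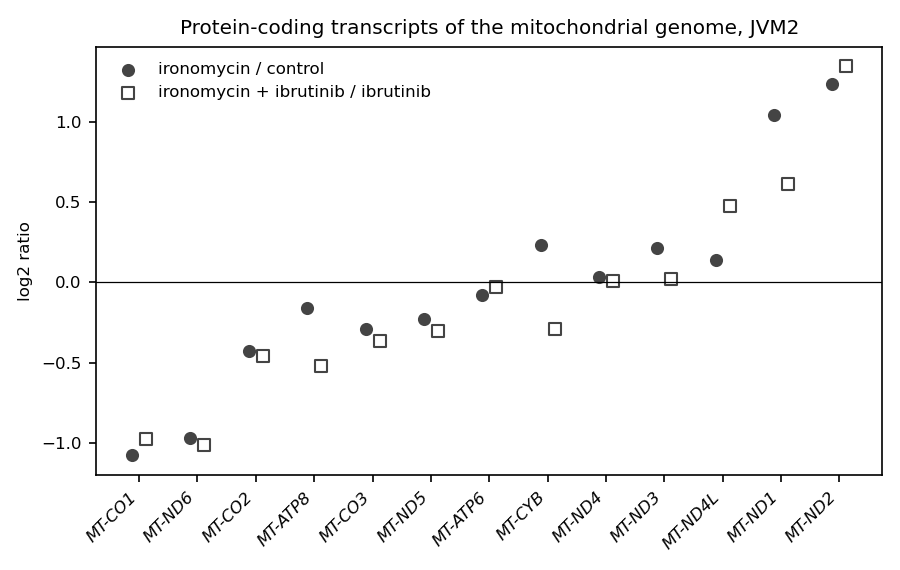
Log2 ratio with ironomycin of the 13 protein-coding transcripts of the mitochondrial genome in JVM2, ordered by log2 fold change, with filled circles for Irono against Ctrl and open squares for Irono+Ibru against Ibru. MT-CO1 and MT-ND6 lie near -1 in both pairs, MT-ND2 lies above 1 in both, and MT-CYB has opposite signs.

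IGHM and JCHAIN were among the 12 largest falls. IGHM, the heavy chain of IgM, had 330912 reads in Ctrl, 145175 in Irono, 243583 in Ibru and 109885 in Irono+Ibru. The fall was 2.31-fold, -1.21 ± 0.04 on the log2 scale (adjusted p = 2.61e-29), with no overlap. JCHAIN, which joins IgM into polymers, had 6768, 3137, 6093 and 2386 reads and fell by 1.27. CPNE5, a copine, fell by 1.21. In the list of B-cell and plasma cell transcription factors 4 of 19 rose and 7 fell (median -0.11; 1 and 2 over 12 libraries), with EBF1, a factor of early B cells, at 0.34 and KLF2, a factor of quiescence, at -0.72. The plasma cell surface proteins CD38 and TNFRSF17 (BCMA) fell by 0.56 and 0.49.

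Of 32 BCR signaling genes 6 rose and 15 fell (median -0.09; 0 and 6 over 12 libraries), shares of 18.8% and 46.9% beside the 19.2% and 19% of all genes. Of 22 inhibitory receptors, phosphatases and SH2 adaptors 3 rose and 13 fell (median -0.30; 0 and 6 over 12 libraries). PTPN6, the phosphatase SHP-1, had 26089 reads in Ctrl, 20076 in Irono, 17284 in Ibru and 14380 in Irono+Ibru. It was lower with ironomycin within each pair, by 0.42 and 0.30 on the log2 scale, but Irono lay above Ibru, and the gene was not called over 12 libraries. CD22, an inhibitory co-receptor, had 11827, 13050, 11104 and 13106 reads, a rise of 0.15 that DESeq2 and the fit over 12 libraries did not call.

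FCRL5, an Fc receptor-like protein, had 685, 306, 178 and 98 reads and fell by 1.11. STAP1, an adaptor, had 147, 50, 33 and 26 reads and fell by 1.24, and GRAP2 fell by 0.85. FCRL5 and STAP1 were also low with ibrutinib alone, and in a fit without Ctrl, which had no ibrutinib term, their log2 fold changes were 0.16 and 0.18. LAIR1, an inhibitory receptor, rose by 0.97 (43, 96, 56 and 103 reads).

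MHC class II genes rose in 9 of 14 and fell in 0 (median 0.21; 2 and 0 over 12 libraries), with HLA-DPB1 at 10106, 12789, 9983 and 13398 reads, a rise of 0.34. NF-kB targets and TNF-family genes rose in 18 of 30 and fell in 2 (median 0.17; 3 and 1 over 12 libraries). CCL22, a chemokine, had 2697 reads in Ctrl, 5815 in Irono, 3504 in Ibru and 8304 in Irono+Ibru and rose by 1.14, and EBI3, a cytokine subunit, rose by 0.72. Immediate early and ERK feedback genes rose in 13 of 27 and fell in 1 (median 0.24; 5 and 0 over 12 libraries). FOSB rose by 1.14 and EGR3 by 0.76, and EGR1 by 0.69, from 486 to 768 reads and, with ibrutinib, from 129 to 239. Without Irono, and with no ibrutinib term, the EGR1 value was -0.42.

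Interferon-stimulated genes had the deepest list median downward after the LXR targets. Of 45 tested 35 fell and 1 rose, with a median of -0.40, and 24 and 0 were called over 12 libraries. IFIT1, which binds viral RNA, had 252, 104, 226 and 100 reads in Ctrl, Irono, Ibru and Irono+Ibru, a change of -1.27 ± 0.14. CMPK2 fell by 1.18, IFI27 by 1.11 and the helicase DDX60 by 1.10. All 4 had ironomycin libraries below both others, but they were picked for the size of their falls.

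Whether these changes were those of the other lines was tested in a fit over all 12 libraries, as the log2 fold change of JVM2 minus the mean of JEKO1 and MAVER1. It differed for 1995 genes (13.7%), 1003 higher in JVM2 (6.9%) and 992 lower (6.83%). MAVER1 received the same ironomycin dose as JVM2, JEKO1 a lower one, so that line and dose cannot be told apart for JEKO1, and the ibrutinib dose differed in each line. The count was 447 in a fit without ibrutinib terms, 3475 without JEKO1 and 1014 without MAVER1. Across genes the SD of the log2 fold change was 0.34 in JVM2, 0.67 in JEKO1 and 0.70 in MAVER1. Of 1023 genes called in JVM2 that also differed, 452 had the same sign and a smaller size than the mean of the other lines, 74 the same sign and a larger size, and 497 the opposite sign.

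**Figure D5:**
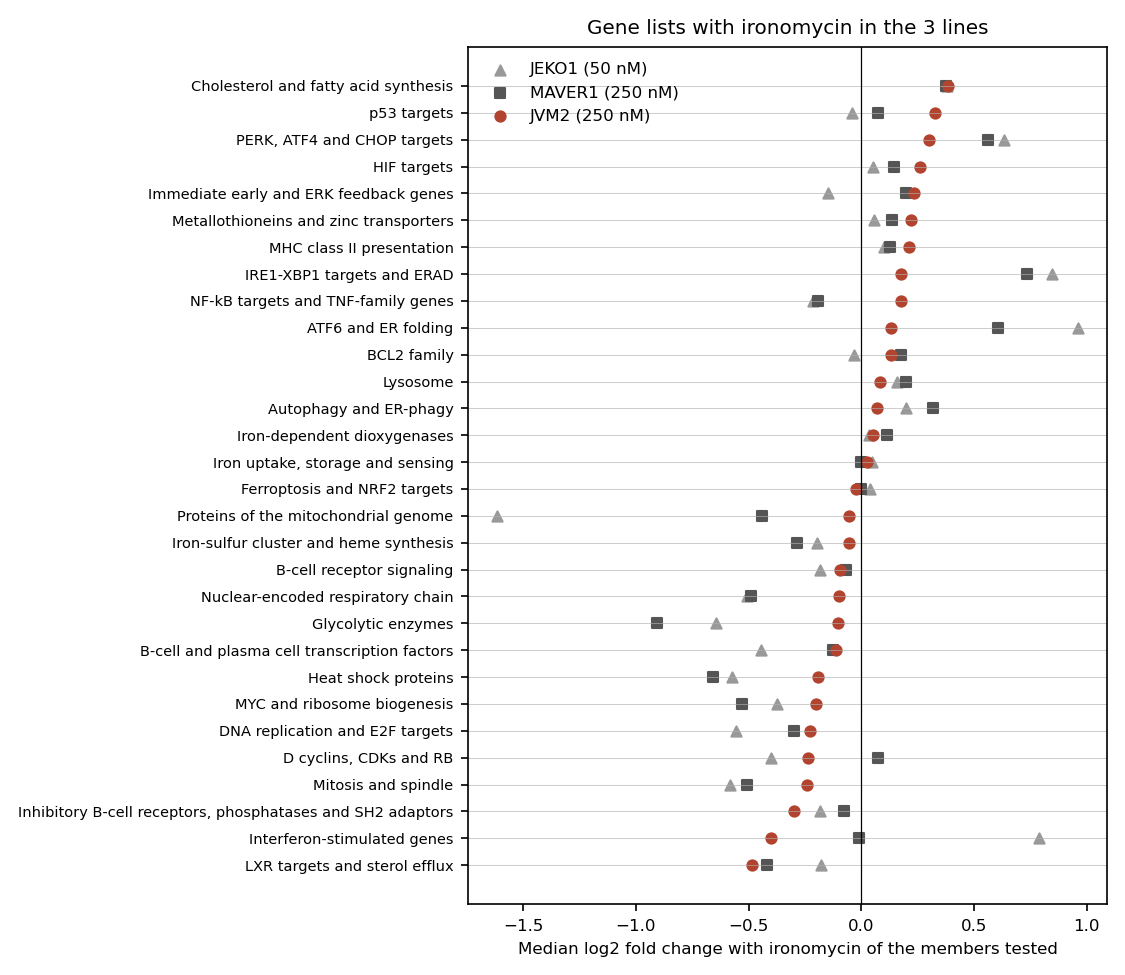
Median log2 fold change with ironomycin over the tested members of each of 30 gene lists, in JVM2 (red circles, 250 nM), JEKO1 (light triangles, 50 nM) and MAVER1 (dark squares, 250 nM), ordered by JVM2. The lists of the unfolded protein response lie between 0.13 and 0.30 in JVM2 and between 0.56 and 0.96 in the other lines, and interferon-stimulated genes lie at -0.40, 0.79 and -0.01 in JVM2, JEKO1 and MAVER1.

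Genes of the unfolded protein response rose less in JVM2. Of the 37 IRE1-XBP1 and ER-associated degradation genes, 27 had a lower change in JVM2 and 0 a higher one, of the 24 ATF6 and ER folding genes 19 and 0, and of the 46 PERK, ATF4 and CHOP targets 22 and 1. GDF15 had log2 fold changes of 1.89 in JVM2, 5.85 in JEKO1 and 5.50 in MAVER1, a difference of -3.78 ± 0.48 (adjusted p = 0.00158). ERN1 had 0.85, 3.01 and 2.86, a difference of -2.08 ± 0.28 (adjusted p = 0.00222), and HSPA5 had 0.22, 1.02 and 0.75 (adjusted p = 0.00546). The JVM2 value was the lowest of the 3 lines in each of these genes.

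Interferon-stimulated genes differed in 30 of 45 in the lower and 2 in the higher direction. IFIT1 had -1.27 in JVM2, 3.86 in JEKO1 and -0.60 in MAVER1 (adjusted p = 0.0011), and without JEKO1 the difference was not called. The 3 lines thus had different signs or sizes for this gene, with JEKO1 alone above 0.

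Several groups with a negative median in every line had a smaller one in JVM2. The change was higher in JVM2 in 30 of 76 respiratory chain genes and 11 of 16 glycolytic enzymes, and lower in 0 of either. ALDOC, among these, rose in JVM2 and had -0.18 in JEKO1 and -1.03 in MAVER1. The median of glycolytic enzymes was -0.10 in JVM2, -0.64 in JEKO1 and -0.91 in MAVER1. The same direction was called in 13 of 44 MYC and ribosome biogenesis genes and in 11 of 30 heat shock proteins, and the other direction in 0 of both. PTPN6 had -0.36 in JVM2, -2.03 in JEKO1 and -1.33 in MAVER1 (adjusted p = 0.00138), and CD22 had 0.15, -1.05 and -1.35 (adjusted p = 0.00723).

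The p53 targets had medians of 0.33 in JVM2, -0.04 in JEKO1 and 0.08 in MAVER1, and 16 of 39 were higher in JVM2 and 4 lower. TP53I3 had 0.83, -0.28 and -0.16, and FDXR, which is also a p53 target, 0.43, -0.43 and -0.79. In both genes JVM2 was the line with a rise, whereas GDF15, on the same list, had 1.89, 5.85 and 5.50. CDKN1A had 0.30 in JVM2, 1.11 in JEKO1 and 1.02 in MAVER1, a difference that was not called (adjusted p = 0.0521). P4HA2 had 1.59 in JVM2, -0.36 in JEKO1 and -0.65 in MAVER1, a difference of 2.09 (adjusted p = 0.0004). TFRC had 0.99, 0.10 and 0.75 (adjusted p = 0.0112), not called without JEKO1, and CCND1 differed by -0.26 (adjusted p = 0.158). Cholesterol and fatty acid synthesis genes had medians of 0.38, 0.38 and 0.37 in JVM2, JEKO1 and MAVER1, with 7 of 33 higher and 6 lower in JVM2.

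The genes whose change lay furthest above that of the other lines rose in JVM2 and fell in both others. PADI2, a peptidylarginine deiminase, had log2 fold changes of 0.63 in JVM2, -3.05 in JEKO1 and -2.93 in MAVER1 (adjusted p = 9.83e-05). LIF, a cytokine, had 1.03, -0.68 and -4.15 and CCL22 had 1.14, -3.59 and -1.20. The non-coding RNA LINC00158 and PIK3R5, a regulatory subunit of PI3K, were the other 2 of the 5. Furthest below stood GDF15, IFIT1, COL24A1, a collagen, INHBE and CSF1, a macrophage growth factor, of which COL24A1 fell by 0.44 in JVM2 and had 2.68 in JEKO1 and 1.90 in MAVER1.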

How the data were processed

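RNA from cell lines after 48 h of treatment was sequenced as polyA, strand-marked, paired-end libraries. Deposited were read counts for each Ensembl gene identifier, as the authors made them and without normalization, and the submitters' processing notes name STAR, DESeq2 and GRCh37. Their roles, versions, the counting program and its strand setting are not given in the sources used here, so overlapping and antisense genes are uncertain. Counts were used as deposited.

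Genes with 20 or more reads in at least 2 of the 4 JVM2 libraries were kept. Library sizes were scaled by TMM (factors 0.98 to 1.02). Counts were fitted in edgeR 4.0.16 (R 4.3.3) with terms for ibrutinib and ironomycin, which pairs libraries by ibrutinib, and tested by quasi-likelihood with Benjamini-Hochberg adjustment over all 14532 genes. The common biological coefficient of variation was 0.037 and the prior degrees of freedom 50.7. Log2 ratios of pairs used a prior count of 2. JVM2 was compared with the other lines in a fit over 12 libraries with terms for each line (3 residual degrees of freedom). DESeq2 1.42.0 and other scalings, filters and sample sets were alternatives. Figures were drawn with matplotlib 3.10.9.

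Members and gene lists were chosen with earlier results of these data known, so list counts are descriptions. Named genes were the 12 largest rises and falls with a mean log2 CPM of at least 2, up to 4 called members per direction of each list, 5 per direction of the line difference, and 27 genes chosen by hand, and 3 of the genes so named are not reported here. Promoter windows were matched by symbol for 10310 genes. Nothing in the labels says that the libraries came from separate cultures, and counting depth says nothing of that spread.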

Additional observations from a re-analysis of the deposited data

Results flagged for a closer look

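A set of 126 of the genes given by name was examined, and some others named above, such as MT-ND3, lay outside it. For 60 of the 126, the ironomycin change of JVM2 differed from the mean change of JEKO1 and MAVER1, beside 13.7% of all genes tested. The test was that of the difference itself (edgeR, adjusted p under 0.05, fit over 12 libraries). The values are log2 fold changes of JVM2 minus that mean. Many of these genes were named for the size of their change or of this difference, so their share is no measure of how often the lines differ.

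Among stress and unfolded protein response genes the difference was -3.78 for GDF15, -2.69 for INHBE, -2.08 for ERN1, -1.72 for WIPI1, -1.62 for CCPG1, -1.32 for DERL3, -1.28 for SLC7A11, -1.11 for DDIT3 and for CHAC1, -1.04 for XBP1, -0.998 for TXNDC5 and -0.67 for HSPA5. Interferon-stimulated genes had -2.89 for IFIT1 and -2.50 for IFI27 and for DDX60.

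Genes of B cells and plasma cells had -2.34 for TNFRSF17, -1.42 for JCHAIN, -1.15 for TENT5C, -0.99 for IGHM and -0.60 for CD38, and on the other side 0.36 for EBF1, 0.75 for GRAP2, 1.32 for PTPN6 and 1.35 for CD22. Histone genes had -1.42 for H2AC6, -1.16 for H1-2 and -0.998 for H2BC12, and without MAVER1 none of the 3 was called: H2AC6 had -1.53 in JVM2, -1.35 in JEKO1 and 1.13 in MAVER1, H1-2 had -1.94, -1.61 and 0.04, and H2BC12 had -1.42, -1.43 and 0.58. Genes of sterols and lipoproteins had -1.04 for VLDLR, -0.70 for SREBF1, 1.0 for TM7SF2 and 1.25 for LRP1.

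Regulators of apoptosis had -1.87 for BCL2L11, -0.45 for BCL2 and 0.47 for BAX. Iron, HIF and p53 target genes had 0.56 for ACO1, 0.57 for TFRC, 1.04 for FDXR and for TP53I3, 1.82 for PPFIA4 and 2.09 for P4HA2. Metabolic, mitotic and chaperone genes had 0.47 for GAPDH, 0.48 for ATP5MC3, 0.59 for PLK1, 0.64 for HSPB1, 0.95 for LDHA and 1.33 for ALDOC. Mitochondrial transcripts had 0.89 for MT-ND2, 1.09 for its copy MTND2P28 and 1.11 for MT-ND1. MT-ND3, outside the set of 126, also differed, by 1.89, with 0.12 in JVM2, -2.71 in JEKO1 and -0.83 in MAVER1.

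The secreted factors CCL22, LIF and EBI3 had 3.53, 3.44 and 1.88, and CSF1 had -2.65. EBI3 had 0.72 in JVM2 and 0.67 in MAVER1 against -2.99 in JEKO1. The remaining values were 3.62 for PADI2, 3.19 for LINC00158, 3.18 for PIK3R5, -0.96 for CPNE5, -1.48 for SCARB2, -2.12 for BEST1 and -2.72 for COL24A1.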

How the results depend on the processing

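The count of genes changed with ironomycin in JVM2, 5554, stayed within 1.5 times under median-of-ratios size factors, library totals, the filterByExpr filter, an adjusted p under 0.01 and no demand that both pairs move alike. It was 272 with a 2-fold limit, 1988 with DESeq2, 1131 with all 12 libraries, 6 with no filter but 1 read, and 287 to 1589 without 1 library. These fits without a library had no ibrutinib term and called genes by adjusted p alone. Pairing by ibrutinib took the place of a replicate block, since the labels number no replicates, and without that block the count was 1178. Of the genes called without Ctrl 1565 of 1589 were among the 5554 with the same direction, without Irono 842 of 845, without Ibru 1477 of 1498 and with library totals 4707 of 5466. The causes were not tested. The share of genes moving alike, 77.9%, was 80.7% among genes with 100 or more reads in at least 2 libraries.

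The count of genes that differed from the other lines, 1995, was 447 without ibrutinib terms (no replicate block), 3475 without JEKO1 and 1014 without MAVER1, which leave fewer samples in the mean it is set against. Of the 60 genes flagged above, 56 were still called in the same direction without JEKO1 and 43 without MAVER1. Without MAVER1 15 kept only their direction, and H2BC12 and CPNE5 differed by 0.013 and 0.27.

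Of the 122 genes called among the 126 examined by name, 71 were called by DESeq2, without the ibrutinib term and with 12 libraries alike. With library totals BCL2L1 was 0.046 and CCND2 0.012. Without 1 library, BCL2L1 ranged from -0.064 to 0.060, CCND2 from -0.11 to 0.043, FCRL5 from -2.20 to 0.16, STAP1 from -2.001 to 0.18 and EGR1 from -0.42 to 1.94. Of 330 recomputed list medians 327 kept their sign. The ferroptosis and NRF2 list was 0.025 with library totals and -0.095 to 0.011 without 1 library, and the mitochondrial genome list -0.31 to 0.013. With 1 library per treatment, neither depth nor any fit here replaces repeated cultures, and genes under the filter were not tested.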
